A study of Mus musculus with 15 samples.

Results

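The 10 genes examined belong to the primitive endoderm programme and were measured in mouse embryonic stem cells that lacked Taf5l, Taf6l or Myc. They were 6 transcription factors (Gata4, Gata6, Sox7, Sox17, Foxa2 and Hnf4a), the endocytic adaptor Dab2 and 3 structural genes of the basement membrane (Lama1, Col4a1 and Col4a2). These 10 genes were taken by symbol from the 37310 genes of the deposited count table, with the most abundant row kept where a symbol had more than 1. Only Dab2 had 2 rows, and the second held no reads in any library. RNA was sequenced from 15 libraries of J1, an embryonic stem cell line kept in serum and LIF, in 5 groups of 3. In the Taf experiment, Taf5l-KO and Taf6l-KO cells were set against wild-type J1 cells labelled for the Taf knockouts (WT-Taf). In the Myc experiment, cMyc-KO cells (Myc-KO) were set against a separate set of wild-type J1 cells (WT-Myc). TAF5L and TAF6L belong to SAGA, a complex that acetylates histones and helps to start transcription. MYC binds E-box DNA and drives growth and metabolism. The labels give no other allele and no treatment. They do not say how the knockouts were made, which part of each gene was removed, how many clones each line stands for, or whether replicates came from separate cultures. The p-values thus judge each difference against the spread of these particular libraries, and part of that spread may be technical. It may also leave out variation between clones.

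Primitive endoderm is the first of the extraembryonic endoderm lineages of the mouse embryo and arises beside the pluripotent epiblast in the inner cell mass. GATA6 and GATA4 drive its formation, SOX17 and SOX7 act with them, and HNF4A and FOXA2 work in the visceral endoderm that follows. Its parietal branch deposits a thick basement membrane, in which laminin trimers and a network of collagen IV chains are the main components. Embryonic stem cells correspond to epiblast and also make laminin and collagen IV, while a minor fraction of such cells in serum can express primitive endoderm genes. In RNA from whole cultures, fewer cells of a type and less RNA per cell cannot be told apart.

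The libraries held between 14935631 and 27650813 counts. Levels below are CPM, the counts of a gene per 1000000 counts of its library after TMM scaling within each experiment, so they are compared within an experiment only. Each targeted gene was lower in its own knockout. Taf5l had 43.0, 42.9 and 41.7 CPM in Taf5l-KO cells, against 88.1, 85.3 and 84.5 CPM in WT-Taf cells. Taf6l averaged 6.59 ± 0.556 CPM in Taf6l-KO cells and 26.1 ± 0.851 CPM in WT-Taf cells, and Myc averaged 29.2 ± 1.60 CPM in Myc-KO cells and 66.8 ± 2.08 CPM in WT-Myc cells (SD, n = 3 each). By the test described below, Myc was also called lower in both Taf knockouts (log2 fold changes -0.69 and -0.83). It averaged 42.7 CPM in Taf5l-KO and 39.0 CPM in Taf6l-KO cells, against 69.2 CPM in WT-Taf cells. Taf6l was called lower in Taf5l-KO cells (-0.35) and Taf5l in Myc-KO cells (-0.19). Within Myc-KO, the counts of replicate 3 were far from those of replicates 1 and 2 (chi-square per degree of freedom 36.4 and 26.3), while replicates 1 and 2 were closer to each other (5.07). Results on Myc-KO below use all libraries, and the values without replicate 3 are given further on. All groups had the stem cell marker Pou5f1 at high level, with a mean of 875 CPM in Taf5l-KO, 789 CPM in Taf6l-KO and 916 CPM in WT-Taf cells, and of 1398 CPM in Myc-KO and 1399 CPM in WT-Myc cells.

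Differences were tested with edgeR's quasi-likelihood F test in a fit of all genes of an experiment, and adjusted p-values are Benjamini-Hochberg values over all genes tested in a comparison. A gene was called at an adjusted p under 0.05. A gene was too low to judge where the filter on low counts removed it or where it averaged under 10 counts in both groups compared. Of the 10 genes 8 passed the filter in each experiment. Sox17, a partner of the GATA factors in primitive endoderm, and Foxa2, a forkhead factor of definitive and visceral endoderm, did not pass in either.

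In Taf5l-KO cells 4 of the 8 tested genes were called higher and 2 lower, against 33.2% of all 15743 tested genes called in either direction (17.4% higher and 15.9% lower). In Taf6l-KO cells the counts were again 4 higher and 2 lower, against 37.2% of all tested genes (19.1% higher and 18.2% lower). The higher genes in both were Gata4, Lama1, Col4a1 and Col4a2, and the lower genes in both were Gata6 and Sox7. These 2 comparisons share the WT-Taf libraries. In Myc-KO cells 1 of the 8 was called higher, which was Gata4, and 4 were called lower, against 34.8% of 14563 tested genes (15.2% higher and 19.5% lower). The 4 lower genes were Hnf4a, Lama1, Col4a1 and Col4a2. The counts rest in part on genes that passed the filter through the wild type alone. Gata6 did so in both experiments and Hnf4a did so in the Myc experiment. Under library totals in place of TMM, 69.0% of the calls in Taf6l-KO against WT-Taf were higher, compared with 51.2% under TMM. The called directions of the 8 genes were the same under both.

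**Figure D1:**
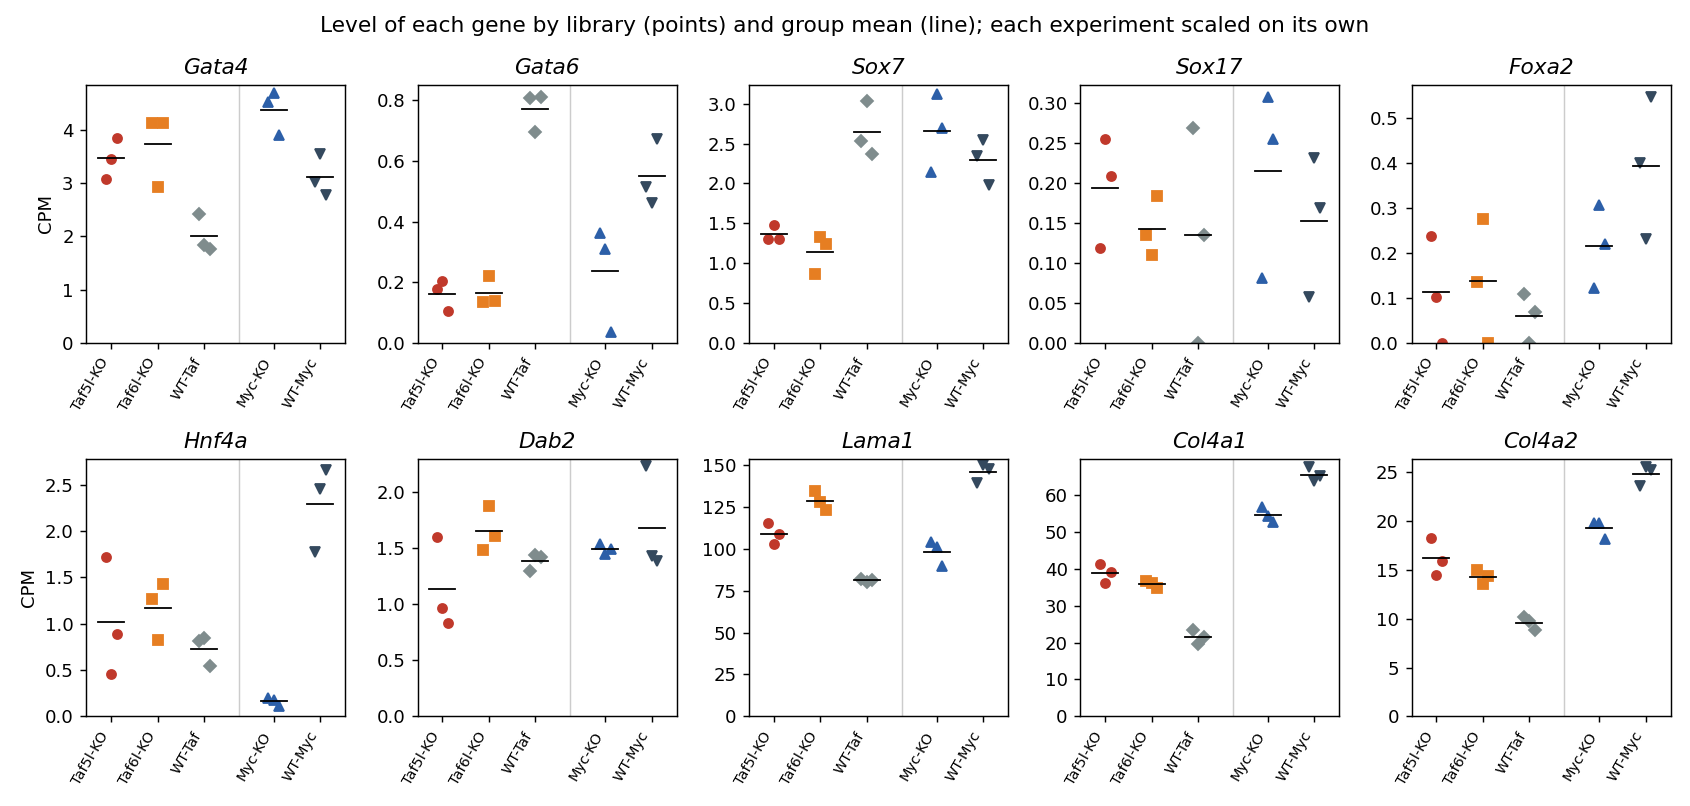
CPM of each of the 10 genes in every library (points, 3 per group) with the group mean (line). The vertical line separates the Taf experiment from the Myc experiment, which were scaled on their own. Lama1, Col4a1 and Col4a2 were above WT-Taf in both Taf knockouts and below WT-Myc in Myc-KO, and Sox17 and Foxa2 stayed under 1 CPM in every library.

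Gata4, a zinc finger factor that is sufficient to turn embryonic stem cells toward extraembryonic endoderm, was higher in all 3 knockouts. Its level was 3.09, 3.47 and 3.86 CPM in Taf5l-KO cells and 4.14, 2.92 and 4.13 CPM in Taf6l-KO cells, against 2.43, 1.84 and 1.76 CPM in WT-Taf cells. All 6 Taf knockout libraries lay above the 3 wild-type libraries. The log2 fold change was 0.78 ± 0.190 (SE, adjusted p = 0.00552) in Taf5l-KO and 0.90 ± 0.185 (adjusted p = 0.00158) in Taf6l-KO. With Myc removed, Gata4 had 4.52, 4.71 and 3.91 CPM in Myc-KO cells, against 3.03, 3.56 and 2.78 CPM in WT-Myc cells. The groups did not overlap, and the log2 fold change was 0.49 ± 0.145 (adjusted p = 0.0341). The Myc call was lost with DESeq2 (adjusted p = 0.0802) and on leaving out any of 4 of the 6 libraries (Myc-KO replicates 1 and 2 and WT-Myc replicates 1 and 3), where the adjusted p reached 0.116. The raw counts behind these values were 52 to 92 in the Taf knockout libraries, against 26 to 45 in WT-Taf libraries. For the Myc experiment they were 107 to 112 in Myc-KO libraries, against 53 to 77 in WT-Myc libraries.

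Gata6, the earliest acting of the GATA factors in primitive endoderm, was lower in both Taf knockouts. It had 3, 4 and 2 counts in the Taf5l-KO libraries and 3, 4 and 3 in the Taf6l-KO libraries, against 15, 14 and 12 counts in the WT-Taf libraries. That was 0.162 ± 0.0516 CPM in Taf5l-KO, 0.165 ± 0.0486 CPM in Taf6l-KO and 0.772 ± 0.0661 CPM in WT-Taf (SD, n = 3 each). The knockout and wild-type libraries were apart in both comparisons, at counts so low that the filter kept the gene through its wild-type libraries. The log2 fold changes were -2.20 ± 0.404 (adjusted p = 0.000764) in Taf5l-KO and -2.21 ± 0.393 (adjusted p = 0.000505) in Taf6l-KO. Its counts were 9, 7 and 1 in Myc-KO libraries, against 9, 10 and 16 in WT-Myc libraries. The difference did not pass, with a log2 fold change of -1.26, a 95% interval from -2.57 to 0.05 and an adjusted p of 0.124. Without Myc-KO replicate 3, which held the single count, it was -0.69 (adjusted p = 0.209).

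Sox7 was lower in both Taf knockouts and was not called in Myc-KO cells. SOX7 belongs to the SOXF family with SOX17 and is strong in parietal endoderm. The Taf5l-KO libraries had 1.31, 1.48 and 1.30 CPM and the Taf6l-KO libraries 0.856, 1.32 and 1.24 CPM, against 2.53, 3.03 and 2.37 CPM in the WT-Taf libraries. Each knockout library was below each wild-type library. The log2 fold change was -0.96 ± 0.203 (adjusted p = 0.00220) in Taf5l-KO and -1.23 ± 0.206 (adjusted p = 0.000301) in Taf6l-KO. In Myc-KO cells it had 2.14, 3.12 and 2.70 CPM, against 2.34, 2.54 and 1.98 CPM in WT-Myc cells. These ranges overlapped, and the 95% interval of the log2 fold change ran from -0.22 to 0.65 around 0.22 (adjusted p = 0.415). Gata4 and Sox7 both lie on chromosome 14. In Myc-KO cells 237 of the other 482 tested genes of that chromosome were called lower and 33 higher, with Gata4 left out and a median log2 fold change of -0.32. Its part in the values of Gata4 and Sox7 was not tested. Among the 20 nearest tested genes of Gata4, 2 were higher and 8 lower in Myc-KO cells, and among those of Sox7, 3 were higher and 3 lower.

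**Figure D2:**
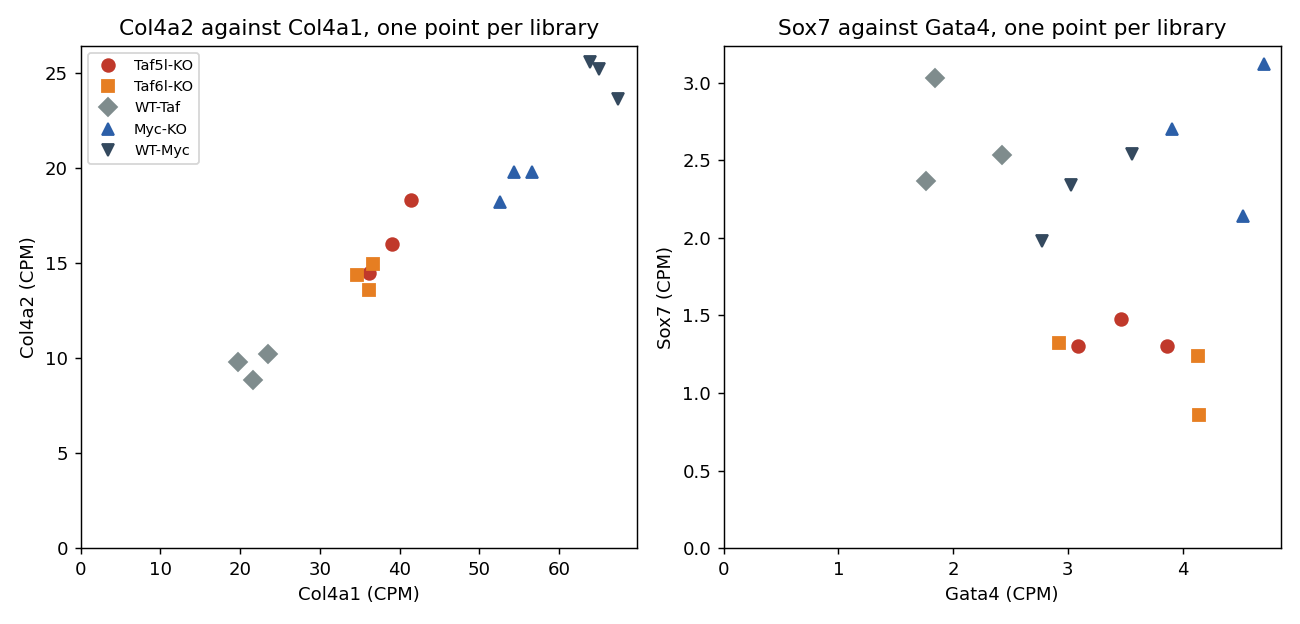
Col4a2 against Col4a1 (left) and Sox7 against Gata4 (right), in CPM, 1 point per library. Groups with more Col4a1 also had more Col4a2, whereas the Taf knockouts lay at higher Gata4 and lower Sox7 than WT-Taf and the Myc-KO libraries at higher Gata4 than WT-Myc.

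Sox17 and Foxa2 were too low to judge. Sox17 had 2, 5 and 4 counts in Taf5l-KO libraries and 3, 2 and 4 in Taf6l-KO libraries, against 5, 0 and 2 in WT-Taf libraries, and its count was 2, 7 and 7 in Myc-KO libraries, against 1, 5 and 4 in WT-Myc libraries. Foxa2 had 4, 2 and 0 counts in Taf5l-KO and 3, 5 and 0 in Taf6l-KO libraries, against 2, 0 and 1 in WT-Taf libraries, and 3, 7 and 6 in Myc-KO libraries, against 7, 5 and 13 in WT-Myc libraries. A count of 0 allows up to 3 counts, or 0.149 CPM in WT-Taf replicate 2, for counting error alone. Both genes overlapped between knockout and wild type in every comparison, and no change was detectable at this depth.

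Hnf4a, a nuclear receptor that controls secreted protein and lipid genes in visceral endoderm and liver, was lower in Myc-KO cells. Its counts were 5, 4 and 3 in the Myc-KO libraries, against 31, 53 and 63 in the WT-Myc libraries, or 0.162 ± 0.0477 CPM and 2.29 ± 0.461 CPM (SD, n = 3 each). Every Myc-KO library was far below every WT-Myc library, and the gene passed the filter through the wild type. The log2 fold change was -3.80 ± 0.306 (adjusted p = 0.000100). On the authors' own normalized counts, which list 15.6 for Myc-KO replicate 3 despite its 3 counts, limma gave -2.45 (adjusted p = 0.0189, the highest over the alternatives run). In the Taf experiment Hnf4a had 1.72, 0.459 and 0.887 CPM in Taf5l-KO cells and 1.26, 0.827 and 1.42 CPM in Taf6l-KO cells, against 0.809, 0.845 and 0.542 CPM in WT-Taf cells. The ranges overlapped with wild type in both. The 95% interval of the log2 fold change ran from -0.48 to 1.31 in Taf5l-KO (adjusted p = 0.488) and from -0.19 to 1.52 in Taf6l-KO (adjusted p = 0.214). Without Taf5l-KO replicate 1, the Taf5l-KO value was -0.15 instead of 0.42.

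The windows from 250 bases before to 50 after each RefSeq start of Hnf4a (build GRCm38.p6) are shown because Hnf4a is a known target of GATA factors in visceral endoderm and had the log2 fold change farthest from 0 among the 8 genes in Myc-KO cells. Capitals mark a GATA motif (AGATAA) and a GC box (GGGCGG). The first window is chr2:163506607-163506906 and the second chr2:163546905-163547204, both on the plus strand.
Hnf4a upstream start: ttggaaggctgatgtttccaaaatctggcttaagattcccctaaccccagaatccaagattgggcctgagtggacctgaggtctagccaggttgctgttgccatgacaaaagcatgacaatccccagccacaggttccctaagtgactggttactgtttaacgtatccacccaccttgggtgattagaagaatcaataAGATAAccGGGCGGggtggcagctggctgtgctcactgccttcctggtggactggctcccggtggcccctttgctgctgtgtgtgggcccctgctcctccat
Hnf4a downstream start: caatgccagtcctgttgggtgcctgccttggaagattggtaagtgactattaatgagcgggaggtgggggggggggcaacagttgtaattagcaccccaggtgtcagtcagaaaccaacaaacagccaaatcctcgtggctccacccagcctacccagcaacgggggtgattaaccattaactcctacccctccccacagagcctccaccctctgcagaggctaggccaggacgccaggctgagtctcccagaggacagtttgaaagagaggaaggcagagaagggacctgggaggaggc
The GATA motif was searched as AGATAA, also with T as its first or G as its last letter, the GC box as GGGCGG and the E-box bound by MYC as CACGTG, on both strands. The first Hnf4a window held 1 GATA motif and 1 GC box, which do not overlap, and no CACGTG. The second held none of them. Across 32851 RefSeq windows of the same length, 29.8% held a GATA motif, 35.7% a GC box and 7.15% the E-box. RefSeq windows were at hand for 5 of the 10 genes (Foxa2, Hnf4a, Dab2, Col4a1 and Col4a2), and none of them held CACGTG. The counts do not separate the starts, and a match is a run of letters in the window.

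Dab2, an adaptor that links the receptors megalin and cubilin to clathrin and marks primitive endoderm, was not called in any comparison. It had 1.60, 0.968 and 0.835 CPM in Taf5l-KO cells and 1.49, 1.88 and 1.61 CPM in Taf6l-KO cells, against 1.29, 1.44 and 1.42 CPM in WT-Taf cells. The Taf6l-KO libraries were all above wild type, and the Taf5l-KO libraries lay on both sides of it. The 95% interval of the log2 fold change was -0.87 to 0.26 in Taf5l-KO (adjusted p = 0.412) and -0.27 to 0.77 in Taf6l-KO (adjusted p = 0.458). Its level was 1.54, 1.45 and 1.5 CPM in Myc-KO cells, against 2.23, 1.43 and 1.39 CPM in WT-Myc cells. The interval there was -0.66 to 0.36 (adjusted p = 0.638), and the ranges overlapped.

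The 3 basement membrane genes were much more abundant in reads than the regulators and had narrower errors. Lama1, the laminin alpha chain of the earliest embryonic basement membranes, had 115, 103 and 109 CPM in Taf5l-KO cells and 134, 128 and 123 CPM in Taf6l-KO cells, against 81.9, 80.2 and 81.0 CPM in WT-Taf cells. Its order in the Taf experiment was Taf6l-KO, Taf5l-KO and wild type, with no overlap between groups. The log2 fold change was 0.43 ± 0.0451 (adjusted p = 6.11e-06) in Taf5l-KO and 0.66 ± 0.0444 (adjusted p = 5.05e-08) in Taf6l-KO. In the direct comparison of Taf6l-KO with Taf5l-KO it was 0.24 ± 0.0431 (adjusted p = 0.00156). In the Myc experiment Lama1 had 104, 101 and 89.4 CPM in Myc-KO cells, against 139, 150 and 147 CPM in WT-Myc cells. Here the knockout was the lower group without overlap, and the log2 fold change was -0.57 ± 0.0678 (adjusted p = 0.000613).

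Col4a1 and Col4a2 encode the pair of chains that form the common collagen IV trimer. Col4a1 had 41.4, 36.2 and 39.1 CPM in Taf5l-KO cells and 36.6, 36.2 and 34.7 CPM in Taf6l-KO cells, against 23.5, 19.7 and 21.6 CPM in WT-Taf cells. The log2 fold change was 0.85 ± 0.0662 (adjusted p = 3.17e-07) in Taf5l-KO and 0.73 ± 0.0660 (adjusted p = 9.48e-07) in Taf6l-KO. Both knockouts were clear of wild type, and overlapped with each other. Myc removal went the other way: Col4a1 had 56.6, 54.4 and 52.6 CPM in Myc-KO cells, against 67.4, 63.9 and 65.0 CPM in WT-Myc cells. The groups did not overlap and the fall was small, with a log2 fold change of -0.26 ± 0.0539 (adjusted p = 0.00753).

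Col4a2 followed the same order of groups as Col4a1. It averaged 16.2 ± 1.92 CPM in Taf5l-KO, 14.3 ± 0.697 CPM in Taf6l-KO and 9.62 ± 0.679 CPM in WT-Taf (SD, n = 3 each). The log2 fold changes were 0.75 ± 0.0930 (adjusted p = 2.82e-05) in Taf5l-KO and 0.57 ± 0.0932 (adjusted p = 0.000256) in Taf6l-KO, and no library of either knockout reached into the wild-type range. In the Myc experiment Col4a2 had 19.8, 19.8 and 18.2 CPM in Myc-KO cells, against 23.6, 25.6 and 25.2 CPM in WT-Myc cells. The log2 fold change was -0.37 ± 0.0683 (adjusted p = 0.00494), and the call was lost with limma on the authors' normalized counts (-0.24, adjusted p = 0.101). The ratio of Col4a1 to Col4a2 counts was 2.40 ± 0.125 in Taf5l-KO, 2.51 ± 0.138 in Taf6l-KO and 2.25 ± 0.215 in WT-Taf libraries, and 2.83 ± 0.0776 in Myc-KO and 2.64 ± 0.188 in WT-Myc libraries (SD, n = 3 each). Within each experiment these ratios overlapped between groups.

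Both collagen genes are read in opposite directions from a common promoter on chromosome 8, which is shown because they moved together in all 3 knockouts. Their RefSeq starts are 21 bases apart, and their windows share 78 bases (73.1% G and C), which are in capitals below. The Col4a1 window is chr8:11312777-11313076 on the minus strand and the Col4a2 window chr8:11312555-11312854 on the plus strand (build GRCm38.p6), each printed 5′ to 3′ on its own strand, so that the capitals of one are the reverse complement of the other.
Col4a1: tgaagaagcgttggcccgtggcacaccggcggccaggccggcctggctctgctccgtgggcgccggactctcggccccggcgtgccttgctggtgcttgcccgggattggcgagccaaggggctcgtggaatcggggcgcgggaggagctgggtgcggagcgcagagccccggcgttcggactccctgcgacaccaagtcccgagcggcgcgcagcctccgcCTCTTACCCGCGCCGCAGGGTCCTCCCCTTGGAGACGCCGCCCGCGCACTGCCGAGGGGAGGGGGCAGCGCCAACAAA
Col4a2: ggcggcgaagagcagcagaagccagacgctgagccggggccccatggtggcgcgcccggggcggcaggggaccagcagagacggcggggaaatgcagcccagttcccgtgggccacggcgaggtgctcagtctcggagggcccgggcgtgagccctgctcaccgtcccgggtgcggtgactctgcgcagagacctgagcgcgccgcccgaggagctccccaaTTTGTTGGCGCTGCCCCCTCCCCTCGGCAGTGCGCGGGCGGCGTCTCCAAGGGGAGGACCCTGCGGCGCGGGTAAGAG
The Col4a1 window held 1 GC box and the Col4a2 window 3, and neither held a GATA motif or CACGTG. The GC box of the Col4a1 window lies in the shared bases and is also 1 of the 3 in the Col4a2 window.

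**Figure D3:**
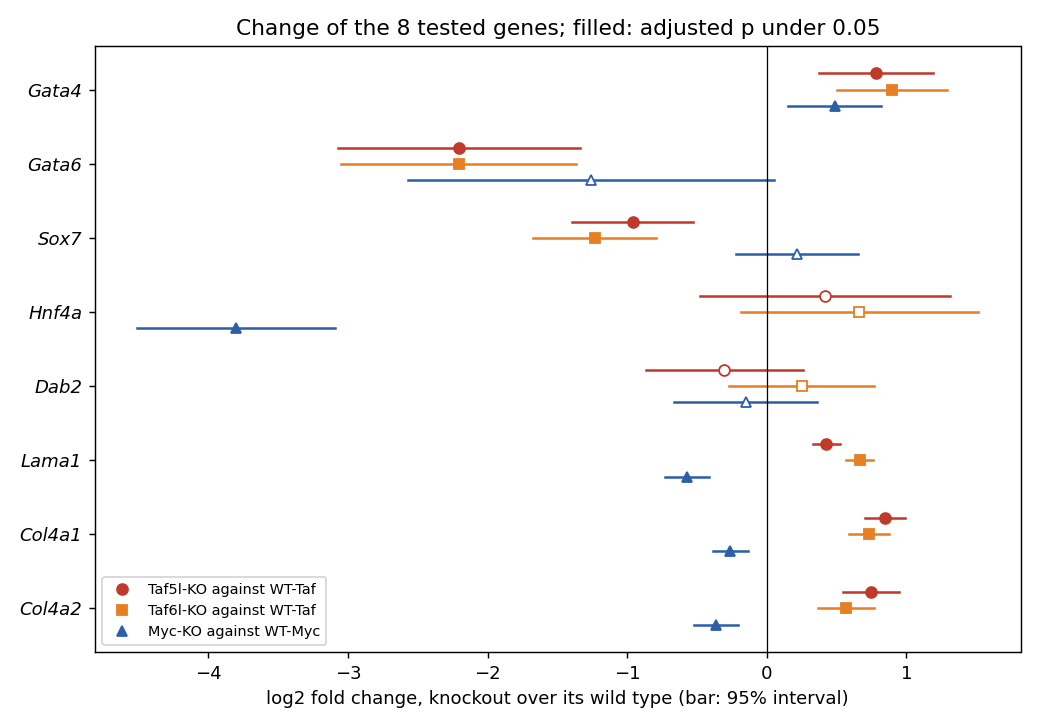
Log2 fold change of each of the 8 tested genes, knockout over its wild type, with the 95% interval (bar); filled symbols had an adjusted p under 0.05. The Taf knockouts and Myc-KO were on opposite sides of 0 for Lama1, Col4a1 and Col4a2 and on the same side for Gata4, and Hnf4a reached -3.80 in Myc-KO.

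Taf6l-KO and Taf5l-KO differed from each other in Lama1 and in no other gene of the 8 by the call, against 18.7% of all tested genes (8.55% higher and 10.1% lower). Under library totals the share of higher calls over all genes in that comparison was 83.1%, compared with 45.8% under TMM, and Lama1 kept its direction and its call. Dab2 had a log2 fold change of 0.55 (adjusted p = 0.143), which passed on leaving out Taf5l-KO replicate 1 (0.86, adjusted p = 0.0307). Gata6 was too low to judge there, with means under 10 counts in both groups. The Taf and Myc effects were then compared gene by gene with an interaction term in a fit of all 15 libraries. It was called for 5 of the 8 genes for each Taf knockout, namely Sox7, Hnf4a, Lama1, Col4a1 and Col4a2, 4 of them with the Taf effect above the Myc effect and Sox7 below it. Over all 16286 genes it was called for 32.1% with Taf5l-KO (15.7% above and 16.4% below) and for 34.8% with Taf6l-KO (17.1% above and 17.7% below). Gata4, Gata6 and Dab2 were not called. The interaction for Gata6 in Taf6l-KO passed without Myc-KO replicate 3 (-1.55, adjusted p = 0.0449). The 2 experiments had separate wild types, and a difference between experiments cannot be told apart from one between the targeted genes where it acts on knockout and wild type unequally.

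Without Myc-KO replicate 3 the same number of genes, 5 of 8, was called in Myc-KO cells. The log2 fold changes were then 0.58 for Gata4 (adjusted p = 0.0131), -3.55 for Hnf4a (adjusted p = 5.45e-05), -0.49 for Lama1 (adjusted p = 5.81e-05), -0.22 for Col4a1 (adjusted p = 0.00944) and -0.31 for Col4a2 (adjusted p = 0.00717). Sox7 (0.22) and Dab2 (-0.13) were again not called.

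Other genes of extraembryonic endoderm, from a list of 30, were mostly low. Between 18 and 21 of the 30 averaged under 10 counts in a given group, and Ttr and Afp, secreted proteins of visceral endoderm, had no counts in Myc-KO and in WT-Myc libraries. In Taf5l-KO cells 13 were tested, 2 were higher and 4 lower, with a median log2 fold change of -0.025 against 0.00054 over all genes. In Taf6l-KO cells 13 were tested, 2 were higher and 3 lower, with a median of -0.11 against 0.020 over all genes. Of all genes 17.4% were higher and 15.9% lower in Taf5l-KO, and 19.1% higher and 18.2% lower in Taf6l-KO cells. In Taf5l-KO cells 2 were lower instead of 4 with DESeq2, with limma or without WT-Taf replicate 1, and 1 was higher instead of 2 on leaving out any library but Taf5l-KO replicate 1. Lrp2, the megalin receptor, rose to 56.3 CPM in Taf5l-KO and 54.6 CPM in Taf6l-KO cells, against 34.7 CPM in WT-Taf cells (log2 fold changes 0.70 and 0.66). Cubn, its partner cubilin, was lower in both, at 0.216 and 0.280 CPM, against 1.12 CPM in WT-Taf cells (-2.38 and -2.04). It held too few reads in the knockouts to pass the filter there and passed through its WT-Taf libraries. Apoe, an apolipoprotein that stem cells also express, was lower in both (-0.66 and -1.10). Pdgfra, a receptor of primitive endoderm, was lower in Taf5l-KO (-1.14, adjusted p = 0.0189), and the keratin gene Krt19 was higher in Taf6l-KO (1.51, adjusted p = 0.00152). Krt19 held few reads outside Taf6l-KO, at 0.453 CPM in WT-Taf and 0.561 CPM in Taf5l-KO, against 1.33 CPM in Taf6l-KO cells.

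In Myc-KO cells 12 of the 30 extraembryonic endoderm genes were tested, 4 were higher and 4 lower, with a median of -0.17 against -0.0018 over all genes, of which 15.2% were higher and 19.5% lower. Without Myc-KO replicate 2 or WT-Myc replicate 1, 2 were lower instead of 4. Fst, the activin antagonist follistatin, rose to 11.8 CPM in Myc-KO cells, against 5.56 CPM in WT-Myc cells (log2 fold change 1.08, adjusted p = 0.00117). Plat, the tissue plasminogen activator made by parietal endoderm, was higher too (0.94, adjusted p = 0.00913). Apob, an apolipoprotein of visceral endoderm and liver, fell to 0.650 CPM, against 2.69 CPM in WT-Myc cells (-2.02, adjusted p = 0.00156). Hhex, a homeobox factor of anterior visceral endoderm, was lower as well (-0.61, adjusted p = 0.00749).

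Of 28 other components of basement membranes 21 were tested in each comparison. In Taf5l-KO cells 12 were higher and 1 lower, with a median log2 fold change of 0.17 against 0.00054 over all genes. In Taf6l-KO cells 7 were higher and 1 lower, with a median of 0.13 against 0.020. The Taf6l-KO split depends on the setting, since 6 to 12 were higher and 1 to 4 lower over the other settings, with 12 higher under library totals and 4 lower under RLE scaling, and 5 were lower without Taf6l-KO replicate 1. Over all genes 17.4% were higher and 15.9% lower in Taf5l-KO, and 19.1% higher and 18.2% lower in Taf6l-KO cells. Lamb1, the beta chain that pairs with the product of Lama1 in laminin-111, was higher in both (0.46 and 0.83), and so was Sparc, a matricellular protein that binds collagen IV (0.33 and 0.61). Lamb2, another laminin beta chain, was higher in Taf5l-KO (0.47), and Smoc1, a SPARC-related calcium-binding protein of basement membranes, was higher in Taf6l-KO, at 19.5 CPM, against 7.19 CPM in WT-Taf cells (1.43). Lamc1, the gamma chain of laminin-111, averaged 781 CPM in Taf5l-KO and 729 CPM in Taf6l-KO cells, against 773 CPM in WT-Taf cells, and was not called in either. It is named here after its values were seen.

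In Myc-KO cells 2 of the 21 tested components were higher and 8 lower, with a median of -0.14 against -0.0018 over all genes. Without Myc-KO replicate 3 the counts were 5 higher and 8 lower, and under library totals they were 4 higher and 6 lower. The number higher was 1 without WT-Myc replicate 1 or 3 and 6 in the fit of all 15 libraries, and over all genes 15.2% were higher and 19.5% lower. Smoc1 fell to 2.51 CPM in Myc-KO cells, against 12.8 CPM in WT-Myc cells (-2.34, adjusted p = 3.56e-05). Frem2 and Fras1, which encode partner proteins of the basement membrane under epithelia, were lower (-1.47 and -1.17).

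Genes that modify, fold or crosslink collagen IV were tested for 12 of the 13 listed. In Taf5l-KO cells 4 were higher and 2 lower (median -0.0028), and in Taf6l-KO cells 6 were higher and the other 6 were not called (median 0.10). Of all genes 17.4% were higher and 15.9% lower in Taf5l-KO cells (median 0.00054). The shares in Taf6l-KO cells were 19.1% higher and 18.2% lower (median 0.020). Serpinh1, the collagen chaperone HSP47, was at 38.4 CPM in Taf5l-KO and 33.5 CPM in Taf6l-KO cells, against 24.1 CPM in WT-Taf cells (0.67 and 0.48). Crtap, a part of the prolyl 3-hydroxylase complex, was higher in both (0.40 and 0.22), and Pxdn, the peroxidase that forms the sulfilimine crosslinks of collagen IV, was higher in both as well (0.71 and 0.46). P4hb, the beta subunit of prolyl 4-hydroxylase, was lower in Taf5l-KO (-0.15) and higher in Taf6l-KO (0.15), and Plod2, a lysyl hydroxylase, was higher in Taf6l-KO (0.30). In Myc-KO cells 4 were higher and 2 lower (median -0.068), against 15.2% and 19.5% of all genes, and 2 were higher without WT-Myc replicate 1. P4ha1, the catalytic subunit of prolyl 4-hydroxylase, fell to 19.9 CPM, against 45.9 CPM in WT-Myc cells (-1.21, adjusted p = 3.52e-05). Pxdn was lower as well (-0.52), whereas Loxl2, a lysyl oxidase (0.80), and P4hb (0.42) were higher.

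Of 11 listed receptors for laminin and collagen 10 were tested, with 4 higher and 2 lower in each Taf knockout and 1 higher and 3 lower in Myc-KO cells. The median log2 fold changes were 0.11 in Taf5l-KO, 0.0082 in Taf6l-KO and -0.11 in Myc-KO, against 0.00054, 0.020 and -0.0018 over all genes, of which 17.4%, 19.1% and 15.2% were called higher and 15.9%, 18.2% and 19.5% lower. The single higher receptor in Myc-KO was lost with limma, with the replicate block and on leaving out any library but Myc-KO replicate 3 (2 higher without that one), and 5 were higher in the fit of all 15 libraries. Ddr1 and Ddr2 encode the discoidin domain receptors, which bind collagen. Ddr2 was at 4.61 CPM in Taf5l-KO and 7.20 CPM in Taf6l-KO cells, against 1.75 CPM in WT-Taf cells (1.42 and 2.05), and Ddr1 was higher in both (0.56 and 0.76). Bcam, a laminin alpha 5 receptor, was lower in both (-0.27 and -0.41). In Myc-KO cells Itga1, the integrin alpha 1 chain that binds collagen IV, fell to 0.636 CPM, against 2.88 CPM in WT-Myc cells (-2.17, adjusted p = 0.000716), Ddr1 was lower (-0.50) and Bcam was higher (0.24).

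**Figure D4:**
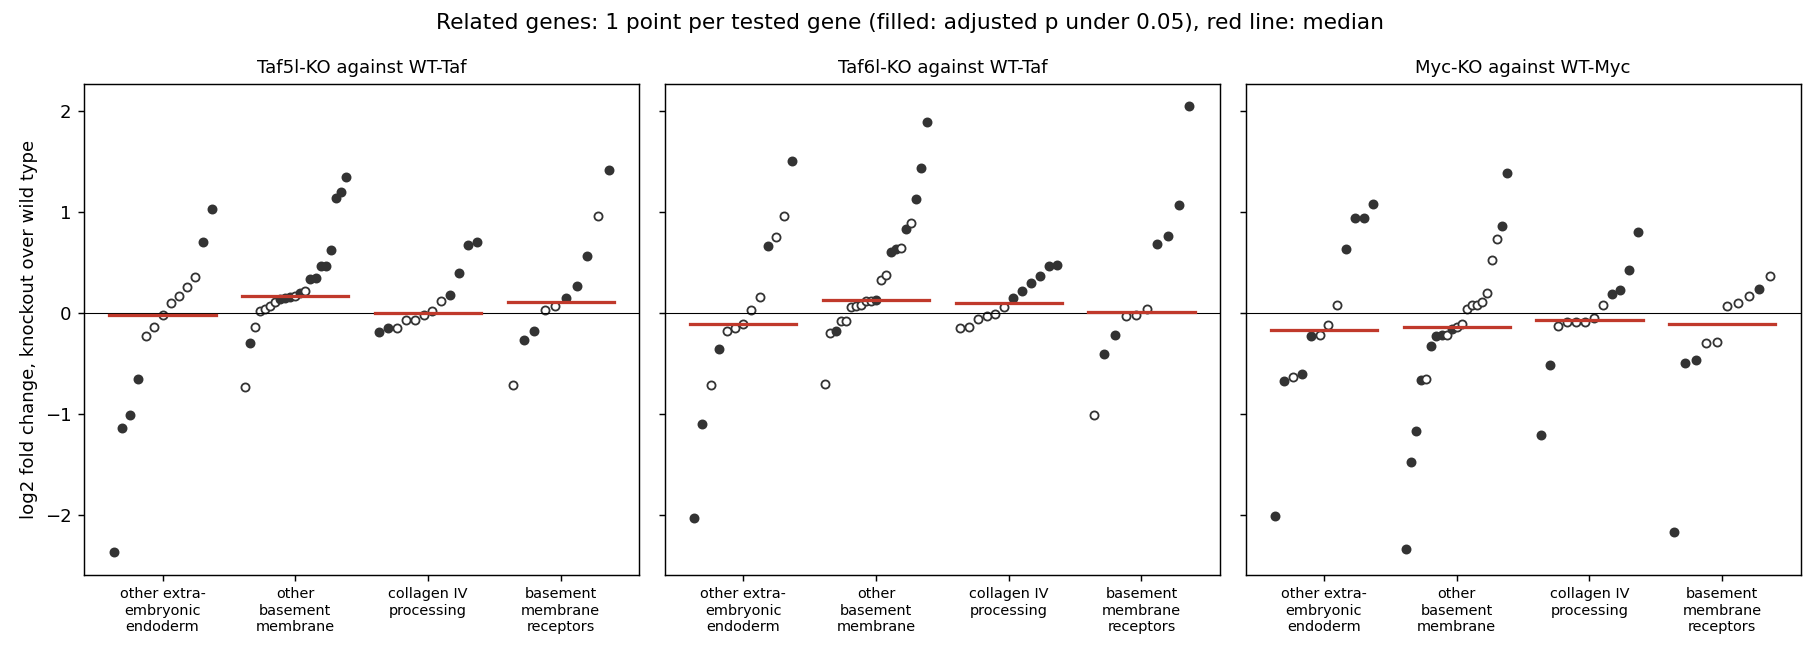
Log2 fold change, knockout over its wild type, of every tested gene of 4 lists related to the 10 genes (1 point per gene, filled where the adjusted p was under 0.05), with the list's median in red. The basement membrane components had medians of 0.17 in Taf5l-KO, 0.13 in Taf6l-KO and -0.14 in Myc-KO.

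Markers of other cell types moved as well, and their part in the results above was not tested. Among 10 stem cell markers 6 were lower and 1 higher in Taf5l-KO, 8 were lower in Taf6l-KO with the other 2 not called, and 5 were higher in Myc-KO cells with the other 5 not called. Of all genes 15.9% were lower and 17.4% higher in Taf5l-KO, and 18.2% lower and 19.1% higher in Taf6l-KO cells. The shares in Myc-KO cells were 19.5% lower and 15.2% higher. The summed level of 9 trophectoderm markers was 46.7 to 47.8 CPM in Taf5l-KO and 51.2 to 54.9 CPM in Taf6l-KO libraries, against 33.4 to 36.5 CPM in WT-Taf libraries. It was 47.2 to 47.7 CPM in Myc-KO libraries, against 79.4 to 82.3 CPM in WT-Myc libraries, and Tpbpa had no counts in any library. These sums are mostly Tfap2c, which stem cells express too, with 40.6 CPM in Taf5l-KO and 44.4 CPM in Taf6l-KO, against 29.4 CPM in WT-Taf cells, and 40.3 CPM in Myc-KO, against 72.5 CPM in WT-Myc cells. Cdx2, a defining factor, averaged 0.0855 to 0.273 CPM over the 5 groups. By the call, 2 of 6 tested trophectoderm markers were higher in Taf5l-KO and 3 of 6 in Taf6l-KO cells, with 0 lower in both. In Myc-KO cells 1 of 5 was higher and 3 were lower. Gata3 was higher in Myc-KO cells although the sum was lower, at 3.32 CPM, against 1.8 CPM in WT-Myc cells (0.89, adjusted p = 0.00552). The summed level of 9 definitive endoderm and mesendoderm markers was 10.2 to 11.3 CPM in Taf5l-KO, 10.5 to 11.3 CPM in Taf6l-KO and 10.4 to 11.4 CPM in WT-Taf libraries, and 12.7 to 14.7 CPM in Myc-KO and 11.2 to 11.8 CPM in WT-Myc libraries. Of 6 tested in the Taf experiment, 1 was higher in Taf5l-KO (Kdr), and 1 was higher (Kdr) and 1 lower (Eomes) in Taf6l-KO. Of 7 tested in the Myc experiment 2 were higher (Evx1 and Tbx6) and 0 lower. The 11 markers of feeder fibroblasts, which can be carried over from stem cell culture and make collagen, summed to 11.8 to 12.5 CPM in Taf5l-KO and 13.3 to 14.1 CPM in Taf6l-KO libraries, against 15.9 to 17.3 CPM in WT-Taf libraries. Of the 4 tested in the Taf experiment only Thy1 was called, at 3.59 CPM in Taf5l-KO and 3.77 CPM in Taf6l-KO, against 6.96 CPM in WT-Taf cells. The 11 markers summed to 14.1 to 15.6 CPM in Myc-KO libraries, against 15.5 to 17.0 CPM in WT-Myc libraries, and the defining markers Lum, Dcn and Twist2 had no counts in any of the 15 libraries. Of the 4 tested in the Myc experiment only Fbn1 was called, at 3.82 CPM in Myc-KO, against 6.27 CPM in WT-Myc cells.

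The genes with the pattern most like Gata4, the most abundant regulator by CPM, and most like Lama1 were sought among 14141 genes by Pearson's r of log2 CPM over the 15 libraries, after subtraction of the wild-type mean of each experiment. The libraries share their group and their scaling, so r follows mostly the group means. For Gata4 they were Wisp1 (r = 0.930), Gsn (0.924), Ndrg3 (0.921), Col7a1 (0.920) and Mex3b (0.919). Col7a1 encodes the collagen of anchoring fibrils, with log2 fold changes of 1.37 in Taf5l-KO, 1.31 in Taf6l-KO and 0.68 in Myc-KO cells. For Lama1 they were Limk2 (0.992), Ptpn14 (0.991), Sf3a1 (0.991), Prrc1 (0.991) and Sdc4 (0.989). Sdc4, a heparan sulfate proteoglycan of cell adhesions, had log2 fold changes of 0.37 in Taf5l-KO, 0.80 in Taf6l-KO and -0.60 in Myc-KO cells.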

How the data were processed

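RNA depleted of ribosomal RNA was sequenced in 15 libraries with a directional kit, per the labels' protocols. Salmon 0.8.2, DESeq2 1.14.1 and mm9 are named in the submitters' processing notes, without their roles. The deposited table of estimated counts per gene, which holds whole numbers here, was the main input. The authors' normalized counts, a depth-scaled signal that was also changed gene by gene before it was deposited, served 1 alternative. Within Myc-KO replicate 3, Hnf4a went from 3 counts to 15.6 and Gata4 from 107 counts to 83.0, so depth was not the only scaling. The cause was not tested. The authors' deposited FPKM values served only to read the gene lengths behind them. These lengths were 2.66% (Dab2) to 34.3% (Col4a1) of that of Lama1, so levels were not ordered between genes. The 15 TPM columns were not used.

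From the counts, edgeR 4.0.16 (R 4.3.3) was run with filterByExpr, TMM scaling and the quasi-likelihood F test, on 9 libraries for the Taf experiment, 6 for the Myc experiment and 15 for interactions, with Benjamini-Hochberg adjustment over all genes. The scripts were tested on simulated data. Alternatives were other scalings, no filter, DESeq2 1.42.0, limma 3.58.1 on log2(normalized count + 1), other library sets, a replicate block and leaving out each library. The members and lists were chosen with earlier results of these data known. Genes were named by rule, which took the 10 genes, the 3 targeted genes, the 4 tested genes of each list with the smallest p per comparison and the 5 genes most like Gata4 and Lama1; a gene that the rule named is not reported here. Of 132 list entries 130 matched a symbol. Libraries of 14935631 to 27650813 counts gave a biological coefficient of variation of 4.23% in the Taf and 10.2% in the Myc experiment, and values from under 10 counts rest on few reads. Chromosomes are from GENCODE (GRCm38) and promoters from RefSeq.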

Additional observations from a re-analysis of the deposited data

Results flagged for a closer look

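For 5 of the 8 tested genes the change in the Taf knockouts differed from the change in Myc-KO cells by the interaction test in a fit of all 15 libraries (edgeR, adjusted over 16286 genes), against 32.1% of all genes for Taf5l-KO and 34.8% for Taf6l-KO. Values are the Taf log2 fold change minus the Myc log2 fold change. For Lama1 the difference was 0.95 with Taf5l-KO (adjusted p = 9.08e-07) and 1.19 with Taf6l-KO (adjusted p = 5.86e-08). For Col4a1 it was 1.07 (adjusted p = 3.98e-07) and 0.95 (adjusted p = 1.03e-06). For Col4a2 it was 1.07 (adjusted p = 6.70e-06) and 0.90 (adjusted p = 3.21e-05). In these 3 genes every Taf knockout library was above every WT-Taf library and every Myc-KO library was below every WT-Myc library. The share of all genes with libraries apart in this way was not computed. For Sox7 the difference was -1.22 with Taf5l-KO (adjusted p = 0.00246) and -1.49 with Taf6l-KO (adjusted p = 0.000461). For Hnf4a it was 4.18 with Taf5l-KO (adjusted p = 7.98e-05) and 4.42 with Taf6l-KO (adjusted p = 2.90e-05), and it rests on 3 to 5 counts per Myc-KO library. Each of these 10 differences kept its direction and its call without Myc-KO replicate 3. The 2 sets of differences share the 6 libraries of the Myc experiment and the WT-Taf libraries.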

How the results depend on the processing

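The number of the 10 genes called was 6 in Taf5l-KO and 6 in Taf6l-KO under every alternative run. In Myc-KO it was 3 with limma on normalized counts instead of 5, 4 with DESeq2 or the replicate block, 6 with all 15 libraries in 1 fit, and 4 to 5 on leaving out 1 library. In Taf6l-KO against Taf5l-KO it was 1, or 1 to 2 on leaving out 1 library. The number of all genes called moved by over 1.5 times for Taf5l-KO against WT-Taf with limma (3483 instead of 5234), for Myc-KO with the replicate block (3139 instead of 5064) and for Taf6l-KO against Taf5l-KO (2938) with DESeq2 (1851), limma (1406) and all 15 libraries in 1 fit (1647). Leaving out 1 library in that last comparison gave 2022 to 2634. The cause was not tested.

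Reversed values were all of uncalled genes: Hnf4a in Taf5l-KO without Taf5l-KO replicate 1 (-0.15, in a range of -0.15 to 0.78 on leaving out 1 library), Dab2 in Myc-KO without WT-Myc replicate 1 (0.083, range -0.28 to 0.083), and, in Taf6l-KO against Taf5l-KO, Hnf4a without Taf5l-KO replicate 2 (-0.12, range -0.12 to 0.81) and Gata6 with library totals (0.085), with limma (0.019) and without Taf5l-KO replicate 1 (0.058) or 2 (0.21) or Taf6l-KO replicate 1 (0.12) or 3 (0.10), in a range of -0.24 to 0.21. Gata6 was called in Myc-KO when all 15 libraries were fitted together (-1.22, adjusted p = 0.0419). Gata4 in Myc-KO lost its call with limma (0.53, adjusted p = 0.0542) and with the replicate block (0.49, adjusted p = 0.0600), which changed no other call of the 10 genes. Same-numbered libraries of a knockout and its wild type did not deviate together (r from -0.255 to -0.00117). Between Taf5l-KO and Taf6l-KO the same-numbered r was 0.00906, 0.0713 and 0.0385, against -0.0682 to 0.0308 for the other pairs. Over all pairs of groups, not every library correlated best with its own number, so the numbers were not taken to pair them. Among the recomputed list counts, added after the data were seen, 651 stayed within 1.5 times and 77 did not. Depth limits Sox17, Foxa2 and Gata6, whose libraries held 0 to 16 counts.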
